A study of Mus musculus with 60 samples.

Results

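MERVL-int and MT2_Mm are the repeat subfamilies of the mouse endogenous retrovirus MERVL, the first holding its internal, coding part and the second the long terminal repeat (LTR) that serves as its promoter. They were chosen by name, as 2 of the 1146 repeat subfamilies in the tables of 56633 genes and repeat subfamilies, and followed over 20 groups of 3 libraries each (60 libraries). A further 6 subfamilies, MERVL_2A-int, MT2A, MT2B, MT2B1, MT2B2 and MT2C_Mm, were taken for comparison by their names alone. A subfamily value sums reads over all genomic copies, so it has no single position in the genome.

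The study followed mouse embryonic stem cells (mESCs) of the E14JU line in which POLE4, a DNA polymerase epsilon subunit that carries parental histones to the leading strand, bears a dTAG degron in every group. Cells received DMSO (Ctrl) or 1 uM dTAG, which removes the tagged protein (dPOLE4), in a WT background or in cells carrying MCM2-2A, a mutation of the MCM2 helicase subunit that disables histone recycling to the lagging strand (Ctrl MCM2-2A and dPOLE4 MCM2-2A). RNA was taken after 24 h of DMSO or dTAG in serum with LIF (T0), after a further 12, 24 and 60 h in retinoic acid (RA) without LIF (T12, T24 and T60), and, as an experiment of its own, after 96 h of DMSO or dTAG without RA. The comparisons ask how loss of histone recycling on either or both strands affects expression in pluripotent cells and on exit from pluripotency. The degron was put separately into WT and MCM2-2A cells, and the MCM2-2A libraries come from clone 2, so the mutation cannot be told apart from the clone. The degron acts on the protein, so the RNA does not check the depletion. A label on the treatment lists 24, 48 and 60 h of RA, while the libraries themselves are named T12, T24 and T60, and the library names were followed.

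MERVL copies are transcribed in the 2-cell embryo at zygotic genome activation, driven by MT2_Mm LTRs that the homeobox factor DUX binds. Many genes of that stage start in, or close to, an MT2_Mm copy. In cultured mESCs most copies are silent, held by histone deacetylation, KAP1 (Trim28), H3K9 methylation and chromatin assembly by CAF-1, and a few cells at a time pass through a 2-cell-like state in which MERVL, the Zscan4 genes and DUX targets are expressed together.

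None of the files used here holds the sequence of MERVL-int or MT2_Mm. To show what a promoter of a MERVL-linked gene looks like, Gm4340 was taken, a 2-cell gene among the 10 features most like MERVL-int (below), chosen after its values were seen. Gm20767, also on the 2-cell list, ranked just above it. The RefSeq promoter window of Gm4340 (GRCm38.p6, 250 bases before and 50 after the start) was compared with all 32851 windows of that table by shared 21-base words. Of its 270 words, at least 50 were shared by 21 windows of 20 gene symbols, Gm4340 itself included. The windows of Gm4340 (chr10:104193792-104194091, plus strand), Sp110 (chr1:85603842-85604141, minus strand) and Pemt (chr11:60040139-60040438, minus strand) are printed to show the shared sequence, with capitals marking the bases that lie in 21-base words common to all 3 windows (57 words):
Gm4340: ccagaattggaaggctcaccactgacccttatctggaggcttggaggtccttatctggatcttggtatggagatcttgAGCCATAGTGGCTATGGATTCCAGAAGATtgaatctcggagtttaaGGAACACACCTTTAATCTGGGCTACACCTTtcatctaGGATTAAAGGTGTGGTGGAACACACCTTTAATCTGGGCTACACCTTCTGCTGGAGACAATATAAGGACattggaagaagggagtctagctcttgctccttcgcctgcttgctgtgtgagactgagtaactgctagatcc
Sp110: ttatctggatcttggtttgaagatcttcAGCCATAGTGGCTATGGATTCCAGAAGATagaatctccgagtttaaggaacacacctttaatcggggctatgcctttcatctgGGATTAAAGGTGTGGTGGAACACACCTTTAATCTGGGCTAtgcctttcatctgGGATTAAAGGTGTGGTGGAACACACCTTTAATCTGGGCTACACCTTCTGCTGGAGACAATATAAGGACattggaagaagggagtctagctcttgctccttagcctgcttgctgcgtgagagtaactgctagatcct
Pemt: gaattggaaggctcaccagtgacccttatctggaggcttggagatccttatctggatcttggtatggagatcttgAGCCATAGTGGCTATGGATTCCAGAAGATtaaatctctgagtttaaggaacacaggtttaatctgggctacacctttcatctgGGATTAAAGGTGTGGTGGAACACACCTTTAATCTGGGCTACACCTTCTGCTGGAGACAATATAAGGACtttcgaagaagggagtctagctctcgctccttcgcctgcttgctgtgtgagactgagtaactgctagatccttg
The 3 windows lie on different chromosomes and share long identical stretches in the bases before the start. No file names the repeat, and whether the sequence is MT2_Mm was not tested. The letters GATTNAATC, the core of the site that DUX is known to bind (N is any base, and the motif is its own reverse complement, so both strands were searched at once), were found in 88 of 32851 windows (0.268%) and in 20 of the 21 windows that share words with Gm4340. The one without it is Sp110. In the windows of Gm4340 and Pemt the motif begins in the last bases of the first run of capitals and ends in the lower-case letters after it. The windows were chosen for a sequence they share, so these matches are not independent of each other.

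Each of the 48 libraries of the RA time course held 10461077 to 46609151 counts in total, and each of the 12 libraries of the 96 h experiment 7126100 to 23598266. Levels are given as CPM (counts scaled to a common library total) after TMM scaling within each table, and the tables were scaled separately, so a level at 96 h is not tested against one at T0. The libraries held the markers of their labelled cell type: the summed CPM of 8 embryonic stem cell markers, such as Pou5f1 and Nanog, averaged 3724 in Ctrl at T0, and between 3646 and 3944 in the 4 groups of 96 h. At T60 this sum averaged 361 in Ctrl, 387 in dPOLE4, 810.2 in Ctrl MCM2-2A and 1046 in dPOLE4 MCM2-2A, so the MCM2-2A lines kept more of these markers. Both members, and all 6 related subfamilies, passed the filter on low counts in every comparison. The methods call the 3 libraries of a group biological replicates, all of 1 line per background, so p-values measure the spread between these libraries and not between clones.

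MERVL-int and MT2_Mm rose about 5-fold by T60 of RA in Ctrl cells, and neither was DE at T12 or T24 (DE is defined below). MERVL-int was measured at 1116, 862 and 911 CPM in the 3 Ctrl libraries at T0, at 814, 535 and 788 CPM at T12, at 1466, 934 and 1172 CPM at T24, and at 5384, 4802 and 4472 CPM at T60. MT2_Mm was measured at 227, 163 and 177 CPM at T0, at 166, 83.0 and 166 CPM at T12, at 316, 182 and 255 CPM at T24, and at 1171, 1022 and 931 CPM at T60. For both, every T60 library lay above every library of the earlier times, while T0 and T24 overlapped. The log2 fold change from T0 to T60 was 2.32 for MERVL-int (standard error 0.10, adjusted p = 2.77e-11) and 2.44 for MT2_Mm (standard error 0.11, adjusted p = 4.82e-11) by edgeR's quasi-likelihood test with Benjamini-Hochberg adjustment, which is the test behind every adjusted p given here. A feature is called DE when its adjusted p is below 0.01 and its log2 fold change is beyond 0.58 in size. Genes and repeats changed widely over this interval: 26.9% of all features tested were DE and higher at T60, 39.6% had T60 libraries all above T0, and 2.36% of repeat subfamilies were DE and higher while 58.1% were DE and lower. RNA was taken from whole cultures, so more cells with active MERVL and more MERVL RNA per cell cannot be told apart, here or in any comparison that follows.

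**Figure D1:**
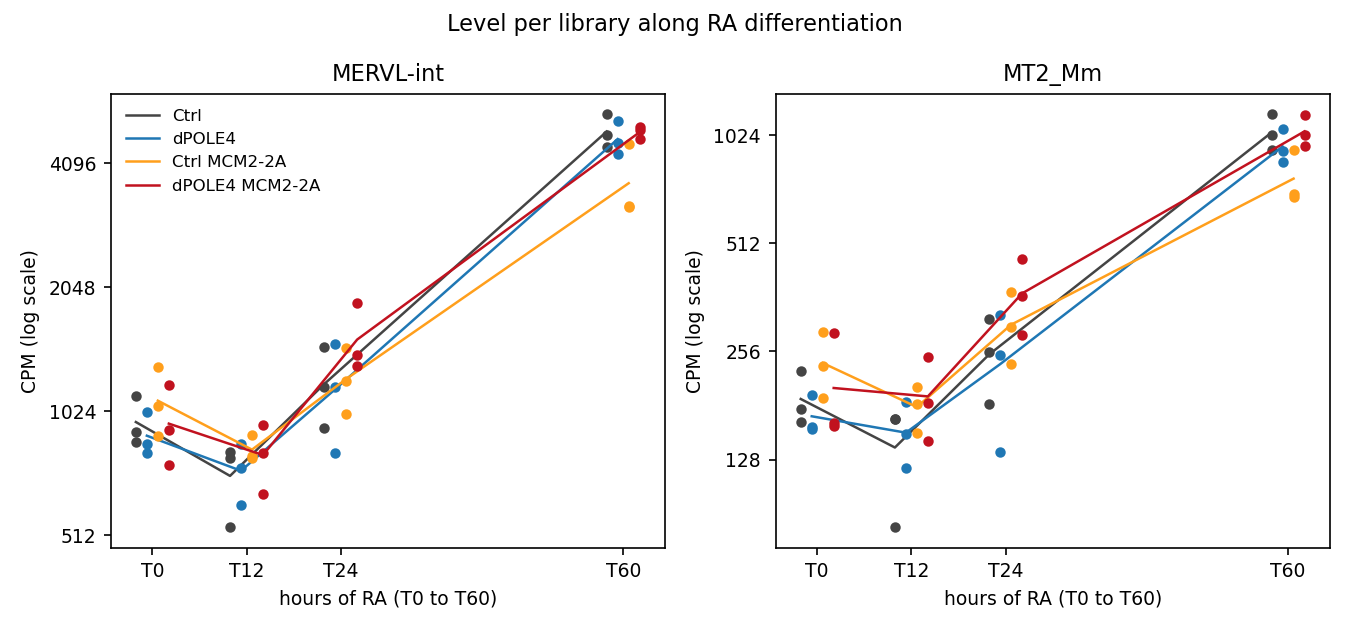
Levels of MERVL-int and MT2_Mm along RA treatment, in CPM on a log2 axis, at T0, T12, T24 and T60 for Ctrl, dPOLE4, Ctrl MCM2-2A and dPOLE4 MCM2-2A. Points are single libraries (3 per group) and lines join group means, and all 12 libraries of T60 lie above every earlier one, with the Ctrl MCM2-2A mean lowest at T60 (3660 CPM for MERVL-int).

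The rise was shared by all 4 lines, as the plot of levels along RA treatment shows. In dPOLE4, MERVL-int was measured at 1016, 810.4 and 849.7 CPM at T0 and at 5169, 4312 and 4572 CPM at T60, which gave 2.37 as the log2 fold change (standard error 0.08, adjusted p = 7.61e-12). In dPOLE4 MCM2-2A it was measured at 923, 759 and 1182 CPM at T0 and at 4999, 4690 and 4921 CPM at T60, with a change of 2.32 on the log2 scale (standard error 0.14, adjusted p = 4.53e-08). In Ctrl MCM2-2A it was measured at 1054, 889 and 1312 CPM at T0 and at 4545, 3206 and 3228 CPM at T60, which gave 1.76 on the log2 scale (standard error 0.16, adjusted p = 4.08e-07). In each line the T60 libraries were all above the T0 libraries, and library 1 of Ctrl MCM2-2A at T60 stood above the other two. MT2_Mm moved alike, with log2 fold changes of 2.47 in dPOLE4 (standard error 0.09), 2.34 in dPOLE4 MCM2-2A (standard error 0.20) and 1.71 in Ctrl MCM2-2A (standard error 0.15), each DE with groups that did not overlap. Of all features, 25.6% in dPOLE4, 26.3% in Ctrl MCM2-2A and 23% in dPOLE4 MCM2-2A were DE and higher at T60, and 39.6%, 38.4% and 35.3% had T60 libraries all above T0. Repeat subfamilies that were DE and higher made up 3.89%, 2.72% and 2.56% of those tested.

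Few other repeats behaved alike, and those DE and lower made up 29.3% in dPOLE4, 20.4% in Ctrl MCM2-2A and 17.2% in dPOLE4 MCM2-2A, beside the share in Ctrl given above. The median log2 fold change over repeat subfamilies was -0.77 in Ctrl, -0.40 in dPOLE4, -0.28 in Ctrl MCM2-2A and -0.29 in dPOLE4 MCM2-2A. Among the 848 subfamilies tested in Ctrl, MT2_Mm had the fourth and MERVL-int the fifth largest rise, after MLT2E, the internal part ERVB4_1-I_MM-int and the LTR RLTR6B_Mm, all DE. MT2_Mm and MERVL-int ranked 5 and 6 of 874 in dPOLE4, 8 and 7 of 883 in Ctrl MCM2-2A, and 3 and 4 of 861 in dPOLE4 MCM2-2A. MERVL-int took 1.07% ± 0.173 of all repeat counts in Ctrl at T0 and 8.25% ± 0.663 at T60 (SD, n = 3 each), while the share of repeats in all counts went from 8.41% ± 0.232 to 5.96% ± 0.126. At T60 its share of repeat counts was 7.53% ± 0.467 in dPOLE4, 5.51% ± 0.928 in Ctrl MCM2-2A and 7.07% ± 0.519 in dPOLE4 MCM2-2A. In Ctrl the log2 change of the mean share was 2.94 when taken of repeat counts and 2.45 when taken of all counts.

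**Figure D2:**
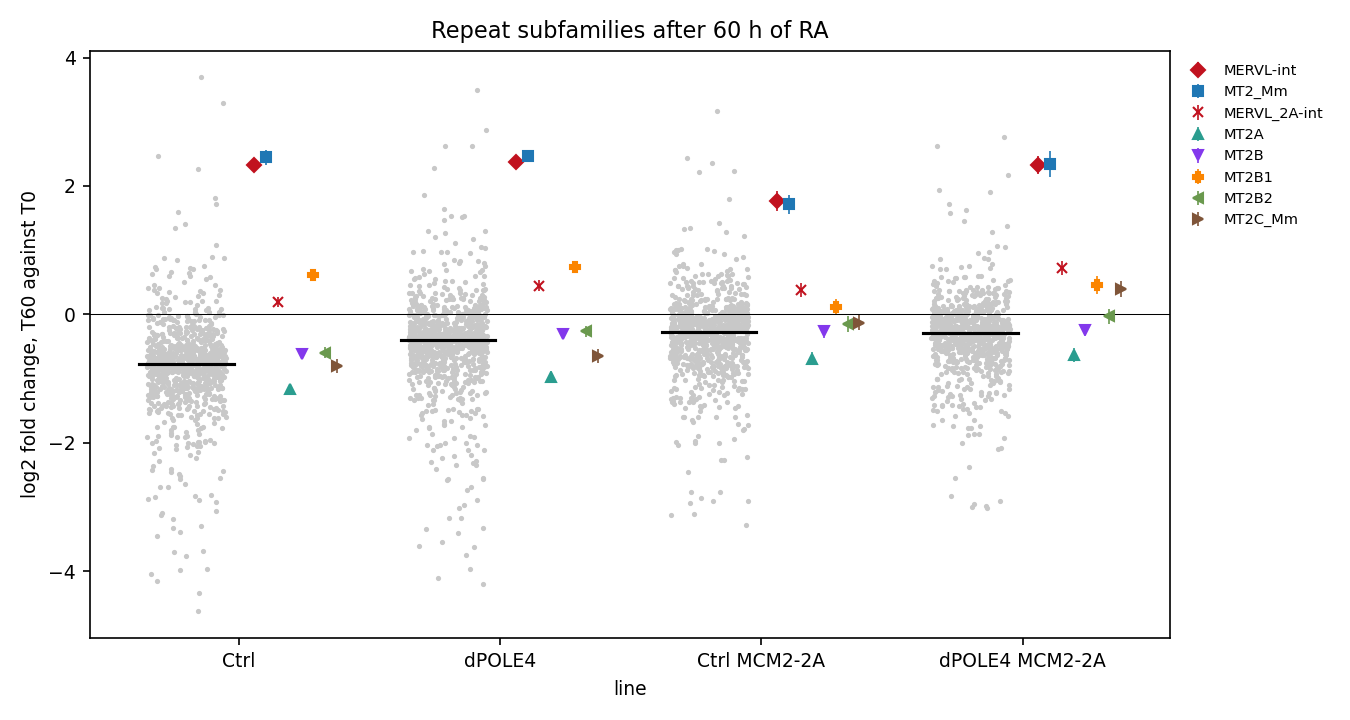
Log2 fold changes from T0 to T60 of MERVL-int, MT2_Mm and the 6 related subfamilies (symbols, with standard errors) over all other repeat subfamilies (gray points, with their median as a black bar) in Ctrl, dPOLE4, Ctrl MCM2-2A and dPOLE4 MCM2-2A. MERVL-int and MT2_Mm lie near the top in each line, between 1.71 and 2.47, while the other MT2 subfamilies lie between -1.17 and 0.74.

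The LTRs that share the MT2 name had smaller values or the other sign. MT2A went from 56.4 ± 3.28 to 25.4 ± 2.64 CPM in Ctrl between T0 and T60 (SD, n = 3 each) and fell in all 4 lines, by 1.17, 0.97, 0.69 and 0.64 on the log2 scale in Ctrl, dPOLE4, Ctrl MCM2-2A and dPOLE4 MCM2-2A. In Ctrl, MT2B fell by 0.61, MT2B2 by 0.60 and MT2C_Mm by 0.81 on the log2 scale, and MT2B1 rose by 0.61. MT2B1 was also DE in dPOLE4 (0.74), and MT2C_Mm was DE and lower in dPOLE4 (-0.65). The values of MT2B and MT2B2 in the other 3 lines lay between -0.31 and -0.03, and none was DE. MT2C_Mm had -0.13 in Ctrl MCM2-2A and 0.39 in dPOLE4 MCM2-2A, and MT2B1 had 0.11 and 0.46, none of them DE. MERVL_2A-int, an internal part with a similar name, was DE in dPOLE4 MCM2-2A (0.72, from 80.2 ± 11.2 to 134 ± 9.51 CPM) and had 0.19, 0.45 and 0.38 in Ctrl, dPOLE4 and Ctrl MCM2-2A.

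Several of these smaller changes sat close to the fold cutoff, so that 1 library decided the call. In Ctrl, MT2B1 lost it without T0 library 2 (0.57), T60 library 1 (0.54) or T60 library 2 (0.57), MT2B2 without T0 library 2 (-0.57), T0 library 3 (-0.55) or T60 library 1 (-0.51), and MT2B without T60 library 1 (-0.55). MT2C_Mm in dPOLE4 lost it without T0 library 2 (-0.57), and MT2A without T0 library 3 in Ctrl MCM2-2A (-0.56) and without T0 library 3 (-0.55), T60 library 1 (-0.57) or T60 library 2 (-0.58) in dPOLE4 MCM2-2A. MT2B1 gained it in dPOLE4 MCM2-2A without T0 library 3 (0.66). Among the other settings tried, MT2B1 in Ctrl lost it with TMM from genes only and with no filter (0.58 each), MT2B2 in Ctrl in the fit over all groups (-0.58) and MT2A in dPOLE4 MCM2-2A with 10 counts required in every library (-0.58). The adjusted p stayed below 0.01 in each of these fits.

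Before T60 the changes were small. At T12 MERVL-int lay below T0 in every line, with log2 fold changes of -0.43 in Ctrl (adjusted p = 0.0311), -0.29 in dPOLE4 (adjusted p = 0.0437), -0.36 in Ctrl MCM2-2A (adjusted p = 0.0461) and -0.24 in dPOLE4 MCM2-2A (adjusted p = 0.315), none of them DE. In Ctrl the T12 libraries all lay below those of T0, where 22.5% of all features had T12 libraries all below T0. At T24 the values were 0.31, 0.38, 0.20 and 0.66 in the same order for MERVL-int, and 0.42, 0.49, 0.37 and 0.85 for MT2_Mm. Only those of dPOLE4 MCM2-2A were DE, where 10.9% of all features and 1.02% of repeat subfamilies were DE and higher, and 26.6% of all features had T24 libraries all above T0.

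In that line MERVL-int was measured at 1398, 1314 and 1870 CPM at T24 (T0 values above; standard error 0.16, adjusted p = 0.00587) and MT2_Mm at 365, 285 and 464 CPM against 159, 161 and 288 CPM at T0 (standard error 0.22, adjusted p = 0.00808). The MERVL-int libraries of T24 all lay above T0, whereas those of MT2_Mm overlapped. DESeq2 called neither, with adjusted p = 0.0198 and 0.0442. The call was lost for both members without T0 library 1 (0.65 and 0.72), T0 library 2 (0.53 and 0.73), T24 library 1 (0.72 and 0.87) or T24 library 3 (0.49 and 0.66). Conversely, MT2_Mm became DE at T24 in Ctrl without T24 library 2 (0.60) and in dPOLE4 without T24 library 2 (0.74), the library with the lowest level of its group.

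The RA response of the mutant lines was then compared with that of Ctrl in a fit of the 4 groups of T0 and T60. In Ctrl MCM2-2A the rise from T0 to T60 was smaller for MERVL-int (difference -0.59 on the log2 scale, standard error 0.20, adjusted p = 0.0415) and for MT2_Mm (difference -0.76, standard error 0.21, adjusted p = 0.0121), neither past the threshold of 0.01. In the same contrast, 4.4% of all features were DE and lower and 4.7% DE and higher, and of repeat subfamilies 0.223% were DE and lower and 5.13% DE and higher. The median difference over the 896 repeat subfamilies was 0.44, and MERVL-int and MT2_Mm had the 24th and 11th lowest values among them. Their sign was thus opposite to that of the median repeat subfamily. The differences for dPOLE4 were 0.06 (standard error 0.14) and 0.04 (standard error 0.16), and those for dPOLE4 MCM2-2A were 0.00 (standard error 0.19) and -0.10 (standard error 0.26), all against the same Ctrl libraries.

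The lower response of Ctrl MCM2-2A depended on few libraries. Both members became DE without library 1 of Ctrl MCM2-2A at T60, with differences of -0.73 for MERVL-int (adjusted p = 0.00762) and -0.88 for MT2_Mm (adjusted p = 0.00463). MT2_Mm also became DE without Ctrl library 1 at T0 (-0.92, adjusted p = 0.00363) or without library 2 of Ctrl MCM2-2A at T0 (-0.91, adjusted p = 0.00356). At T60 itself, Ctrl MCM2-2A against Ctrl gave -0.41 for MERVL-int (standard error 0.12, adjusted p = 0.0142) and -0.42 for MT2_Mm (standard error 0.11, adjusted p = 0.00644), with overlapping groups and below the fold cutoff. Without library 1 of Ctrl MCM2-2A at T60, MERVL-int was DE and lower (-0.58, adjusted p = 0.000129). All 4 marker lists differed in summed CPM between these groups at T60, without overlap. Of single features, 25.7% were higher in Ctrl MCM2-2A without overlap and 26.8% lower, so such a separation was common between these lines. In Ctrl MCM2-2A the sums were 742 to 929 for stem cell, 2828 to 3209 for primitive endoderm, 2290 to 2712 for trophoblast and 351 to 380.4 for neural markers. In Ctrl they were 324 to 415, 2080 to 2703, 1532 to 1834 and 450.3 to 508 in the same order. A sum of CPM is carried by its most abundant members, so it does not show that every marker of a list moved alike. The part of these cell types in the difference was not tested.

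POLE4 depletion, begun 24 h before RA, gave small values for both members at T0 and along RA. The methods do not state whether dTAG was kept in the RA medium. In WT cells dPOLE4 against Ctrl gave log2 fold changes of -0.12 at T0, 0.04 at T12, -0.04 at T24 and -0.04 at T60 for MERVL-int, and of -0.17, 0.13, -0.09 and -0.11 for MT2_Mm. All these groups overlapped, and the adjusted p lay between 0.556 and 0.980. At T0, T12 and T24 no feature was DE in WT cells by edgeR with the filter, with 2069, 1150 and 1451 features at an unadjusted p below 0.05. Without the filter edgeR called 27, 15 and 35 features, with the replicate block 6, 3 and 14, and DESeq2 called 0, 1 and 15. At T60 0.193% of features were DE in WT cells. In MCM2-2A cells the values were -0.18, -0.04, 0.32 and 0.41 for MERVL-int and -0.22, 0.10, 0.30 and 0.44 for MT2_Mm, none DE.

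Replicate numbers paired the T0 libraries in both backgrounds, by a rule applied to these same data and given with the processing. Every dPOLE4 library at T0 lay below the Ctrl library of the same number, for both members. With the replicate number as a block, dPOLE4 against Ctrl at T0 gave -0.12 for MERVL-int (adjusted p = 0.155) and -0.16 for MT2_Mm (adjusted p = 0.0884) in WT cells. In MCM2-2A cells it gave -0.18 (adjusted p = 0.0473) and -0.25 (adjusted p = 0.0350). None was DE.

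At T60 in MCM2-2A cells, the 3 dPOLE4 libraries lay above the 3 Ctrl libraries for both members. MT2_Mm was measured at 933, 702 and 690.4 CPM in Ctrl MCM2-2A and at 1023, 958 and 1167 CPM in dPOLE4 MCM2-2A. The difference was 0.41 for MERVL-int (standard error 0.12, adjusted p = 0.0531) and 0.44 for MT2_Mm (standard error 0.11, adjusted p = 0.0355). Of all features, 14.2% had dPOLE4 libraries all above Ctrl in this comparison and 14.6% all below, while 2.25% were DE and 1.07% DE and higher. Marker sums moved in the same comparison: in dPOLE4 MCM2-2A primitive endoderm markers summed to 2227 to 2497 CPM and neural markers to 291 to 296 CPM, both below the Ctrl MCM2-2A ranges given above, while stem cell markers summed to 909 to 1165 CPM and overlapped. The part of these cell types was not tested. Without library 1 of Ctrl MCM2-2A, which was the highest of its group, both became DE (0.60 each, adjusted p = 0.00224 and 0.00537). The difference of this effect between backgrounds was 0.47 for MERVL-int (standard error 0.16, adjusted p = 0.252) and 0.56 for MT2_Mm (standard error 0.16, adjusted p = 0.147). Over T0, T12 and T24 the differences between backgrounds lay between -0.08 and 0.38, none DE.

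After 96 h of depletion, MERVL-int was 2.00-fold higher in dPOLE4 MCM2-2A than in Ctrl MCM2-2A. It was measured at 1067, 880 and 846 CPM in Ctrl MCM2-2A and at 2053, 1796 and 1733 CPM in dPOLE4 MCM2-2A. MT2_Mm was measured at 265, 194 and 204 CPM in Ctrl MCM2-2A and at 500.3, 384 and 386 CPM in dPOLE4 MCM2-2A. Neither member overlapped between the groups, as 8.83% of all features did not in this direction. The log2 fold change of MERVL-int was 1.00 (standard error 0.11, adjusted p = 0.00251), which made it 1 of 34 features DE and higher (0.195%) and the only repeat subfamily among them (0.119% of 837). MT2_Mm had a log2 fold change of 0.94 (1.92-fold, standard error 0.14, adjusted p = 0.0132), short of the threshold.

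By the pairing rule given with the processing, replicate numbers paired the libraries of this comparison. The rule was applied to these same data, and the methods name no such pairing. With the replicate number as a block both members were DE, with log2 fold changes of 1.01 (adjusted p = 1.87e-15) and 0.94 (adjusted p = 3.03e-14). These p-values hold only if that pairing is right. DESeq2 called MT2_Mm as well (0.94, adjusted p = 1.31e-08). In the unblocked fit the call of MERVL-int was lost without Ctrl MCM2-2A library 3 (0.93, adjusted p = 0.0410), dPOLE4 MCM2-2A library 2 (1.03, adjusted p = 0.0116) or dPOLE4 MCM2-2A library 3 (1.05, adjusted p = 0.0146), and MT2_Mm gained it without Ctrl MCM2-2A library 1 (1.10, adjusted p = 0.00357). The direction was the same in all 6 fits of each member. Among the 837 repeat subfamilies MERVL-int and MT2_Mm ranked 6 and 7, behind LTR16A1, X7A_LINE, IAPLTR4, RLTR44D and RLTR9C, whose log2 fold changes of 1.01 to 2.57 had standard errors between 0.42 and 0.90 and were not DE. The median over repeat subfamilies was 0.08. The 6 related subfamilies had values between 0.09 and 0.36 here, none DE.

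**Figure D3:**
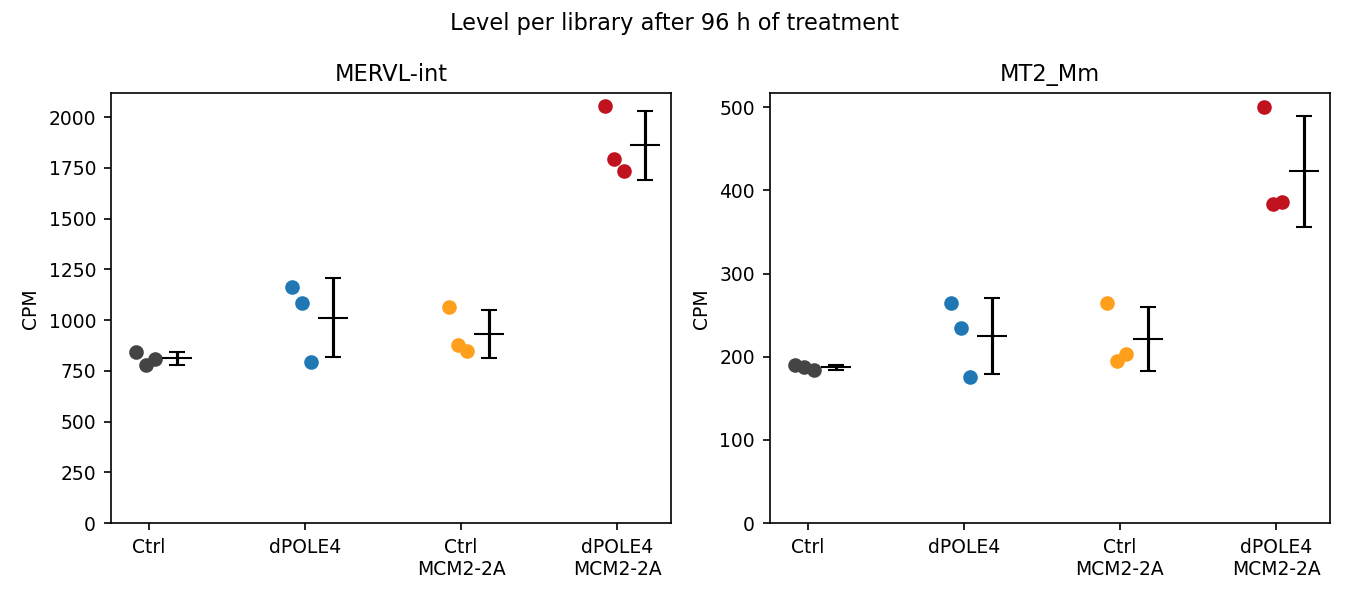
MERVL-int and MT2_Mm after 96 h of DMSO or dTAG, in CPM from 0, for Ctrl, dPOLE4, Ctrl MCM2-2A and dPOLE4 MCM2-2A. Points are single libraries and bars are the mean ± SD of 3, and the 3 dPOLE4 MCM2-2A libraries lie above all 9 others for both subfamilies.

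In WT cells at 96 h the values after depletion were 0.33 and 0.27. MERVL-int was measured at 846, 779 and 810.2 CPM in Ctrl and at 1162, 1083 and 793 CPM in dPOLE4, and MT2_Mm at 189.9, 188 and 184 CPM in Ctrl and at 264, 235 and 176 CPM in dPOLE4. The plot of 96 h levels shows that 2 of the 3 dPOLE4 libraries lay above Ctrl and library 3 did not. The standard error was 0.12 for both, with adjusted p = 0.278 for MERVL-int and 0.375 for MT2_Mm. No feature was DE here by edgeR, with 2164 of 17580 at an unadjusted p below 0.05, while DESeq2 called 24 features and the fit with the replicate block 142. The difference between backgrounds was 0.68 for both members (standard errors 0.17 and 0.20, unadjusted p from edgeR 0.00102 and 0.00382), with an adjusted p of 0.99994 for each. Of 18555 features tested for this difference, none was DE by edgeR, 686 had an unadjusted p below 0.05, and DESeq2 called 1.

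Without depletion, Ctrl MCM2-2A against Ctrl gave log2 fold changes for MERVL-int of 0.16 at T0, 0.22 at T12 and 0.06 at T24, and for MT2_Mm of 0.32, 0.38 and 0.29, all with overlapping groups. At 96 h the values were 0.21 (adjusted p = 0.0920) and 0.25 (adjusted p = 0.0831), and the 3 MCM2-2A libraries lay above the 3 WT libraries for both members, as did 22.3% of all features. Of all features, 18.9% at T0, 14.5% at T12, 17.3% at T24, 16.9% at T60 and 15.7% at 96 h were DE between these lines, the members at none of these points.

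For every 100 counts of MERVL-int there were 19.5 ± 0.719 of MT2_Mm in Ctrl at T0 and 21.3 ± 0.465 at T60 (SD, n = 3 each), and group means over the 20 groups lay between 18.9 and 24.7. Lengths differ between the subfamilies, so this ratio is read only between groups. It was not the same in all of them. In Ctrl the T60 libraries (20.8 to 21.8) lay above those of T0 (18.9 to 20.3), and Ctrl MCM2-2A lay above Ctrl at T0 (21.3 to 22.2) and at T24 (23.5 to 25.8 against 19.5 to 21.8). In MCM2-2A cells of the 96 h experiment the ratio was 23.7 ± 1.41 in Ctrl and 22.7 ± 1.54 in dPOLE4, with overlapping groups. An exact permutation test of that difference of -1.01 per 100 (two-sided, p = 0.5) could not go below 0.1 with 3 libraries against 3, so it does not show that the ratio was unchanged. Over the 48 libraries of the RA time course, MT2_Mm had a Pearson r of 0.99 with MERVL-int in log2 CPM, the highest of 16257 features with a mean of at least 1 CPM. After subtracting the group means, r was 0.96, also the highest. Reads that fit several copies are shared out by the counting program, and an LTR and the internal part of the same copy lie side by side, so these values are not independent. The points also share the RA time course and, within a library, depth and scaling.

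The genes whose pattern was most like MERVL-int fell into different kinds depending on the measure. Over 48 libraries the nearest after MT2_Mm were Rxra (r = 0.97), a nuclear receptor that pairs with the RA receptors, Laptm4a (0.97), Dcc (0.97), the receptor for netrin, Synpo (0.96), Gpx3 (0.96), Gm20767 (0.96), Gm4340 (0.96), Itm2b (0.96) and Gm21818 (0.96). For Rxra, Laptm4a, Synpo, Gpx3 and Itm2b the r of deviations from group means was only 0.38, 0.29, 0.17, 0.16 and 0.19, so their likeness lay between the groups, while Dcc (0.80), Gm20767 (0.86), Gm4340 (0.80) and Gm21818 (0.70) also varied with MERVL-int between libraries of a group. By deviations, the nearest after MT2_Mm were Zscan4e (0.89), Zscan4d (0.88), Zscan4-ps2 (0.88), Zscan4-ps3 (0.88), Gm5662 (0.87), Gm7957 (0.87), Zscan4c (0.86), Gm20767 (0.86) and Zscan4-ps1 (0.86). The Zscan4 genes encode telomere-associated zinc finger proteins of the 2-cell stage, and their copies are near identical, so counts of single copies are uncertain. Of 33 measured 2-cell genes, 32 had an r of deviations above 0 with a median of 0.77, against a median of -0.02 over all 16257 features. Primitive endoderm markers had a median r of 0.90 over the 48 libraries and 0.51 by deviations. With Spearman's rho in place of Pearson's r, 4 of the 10 named over 48 libraries and 8 of the 10 named by deviations stayed among the first 10.

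**Figure D4:**
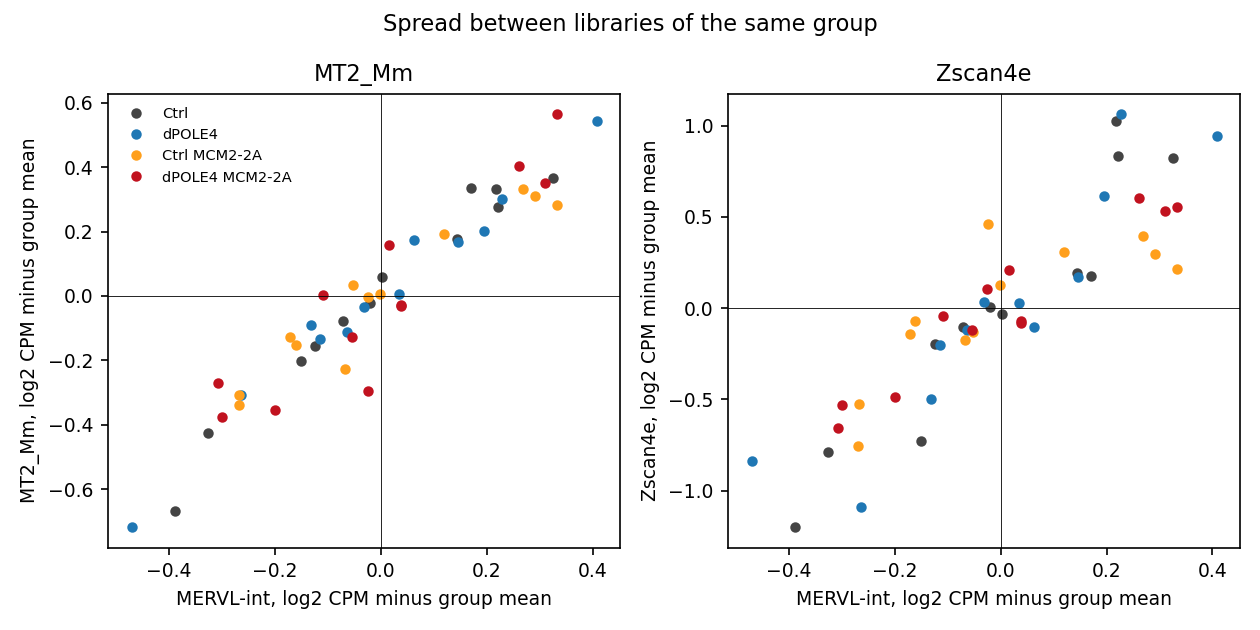
Deviation of MT2_Mm and of Zscan4e from its group mean (log2 CPM, vertical axis) against that of MERVL-int (horizontal axis), 1 point for each of the 48 libraries of the RA time course. MT2_Mm (r = 0.96) lies close to a line and Zscan4e (r = 0.89) follows with more scatter, as a description with no test.

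Genes of the 2-cell stage rose with MERVL at T60. The list of 42 was drawn up with results of these data known, so its counts describe the libraries and are no independent evidence of a direction. In Ctrl, 38 passed the filter on low counts and all 38 were DE and higher, with a median log2 fold change of 3.73 beside -0.01 over all features. The numbers were 38 of 38 in dPOLE4 (median 3.52), 36 of 38 in Ctrl MCM2-2A (median 1.98) and 36 of 38 in dPOLE4 MCM2-2A (median 2.42). Of all features 26.9% were DE and higher in Ctrl, and 25.6%, 26.3% and 23% in the other lines in that order. A gene that passes the filter only through its T60 libraries had to be higher there. Gm4340 (ENSMUSG00000090854, chr10:104194042-104196522 in GENCODE on GRCm38, plus strand) went from 2.37 ± 1.59 to 88.3 ± 16.6 CPM in Ctrl, 5.22 on the log2 scale (standard error 0.23, adjusted p = 3.14e-11). Tmem92 (chr11:94777217-94782703, minus strand), a transmembrane protein gene, went from 1.60 ± 0.690 to 45.9 ± 13.8 CPM (4.84). The other members with the largest values were Spz1 (5.76), AF067061 (5.69), B020004J07Rik (4.94), Usp17ld (4.83), Pramef25 (4.67) and Usp17lc (4.63). Spz1 and AF067061 were at or near 0 in Ctrl at T0 (means of 0.0378 and 0.114 CPM), so the size of their fold change depends on the prior count. Usp17l genes, which encode deubiquitinases, Gm4340 and several others are families of near-identical copies, and counts of a single copy are uncertain.

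In the RA response, 20 of 38 2-cell genes were DE and lower in Ctrl MCM2-2A than in Ctrl, where 4.4% of all features were. All 38 values were below 0, with a median of -1.95 beside a median of -0.01 over all features. The largest were AF067061 (-4.46), Gm4340 (-2.72), Usp17lc (-2.71), Usp17la (-2.42), Tmem92 (-2.40), Tdpoz4 (-2.38), Pramef25 (-2.33) and Zscan4d (-2.31). AF067061 was near 0 in Ctrl at T0, as given above, so the size of its value is uncertain. Zscan4d (chr7:11161374-11166159, minus strand) went from 4.27 ± 2.80 to 86.1 ± 13.0 CPM in Ctrl and from 9.65 ± 4.03 to 42.5 ± 8.61 CPM in Ctrl MCM2-2A. The groups of Zscan4d overlapped at T0, and at T60 every Ctrl MCM2-2A library lay below every Ctrl library, as in 26.8% of all features. The summed CPM of the 2-cell list did not overlap at T0, at 122 to 174 in Ctrl and 186 to 286 in Ctrl MCM2-2A. Of single features, 28.2% were higher in Ctrl MCM2-2A at T0 without overlap. At T60 the sums were 843 to 1148 in Ctrl and 622 to 836 in Ctrl MCM2-2A. The lower response of the list thus held both a higher start and a lower end. In dPOLE4 MCM2-2A 14 of the 38 were DE and lower in response than in Ctrl (median -1.40, with 5.95% of all features DE and lower), where MERVL-int and MT2_Mm gave 0.00 and -0.10. In that line the 2-cell sum was 185 to 297 at T0, above Ctrl, and 931 to 1100 at T60, overlapping Ctrl. In dPOLE4 none of 38 was DE by edgeR or DESeq2, with 4 lower and 2 higher at an unadjusted p below 0.05. Of all features, 13% had such a p by edgeR in either direction, so the list was near that share.

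At 96 h in MCM2-2A cells, 10 of 38 2-cell genes were DE and higher after POLE4 depletion, where 0.195% of all features were. All 38 had values above 0, with a median of 1.31 beside 0.00 over all features. DESeq2 called 19 of them, and 126 of all 17421 features in either direction. The fit with the replicate block called 27 of them, and 307 of all features in either direction. The 8 largest of the DE members were Usp17ld (1.73, edgeR adjusted p = 0.00658), Usp17la (1.55), Usp17le (1.54, adjusted p = 0.00159), Gm4027 (1.41), Gm4340 (1.39, adjusted p = 0.00251), Usp17lb (1.36), Tmem92 (1.36) and Zscan4a (1.34, adjusted p = 0.00958). Usp17le (chr7:104768049-104777470, minus strand) went from 13.2 ± 1.48 to 37.6 ± 3.86 CPM, and Gm4340 from 7.81 ± 1.07 to 20.1 ± 2.24 CPM (SD, n = 3 each). In both the dPOLE4 libraries all lay above the Ctrl libraries. No marker of embryonic stem cells (of 8 tested), primitive endoderm (of 8), trophoblast (of 7) or neural cells (of 5) was DE in this comparison, and the summed CPM of stem cell markers averaged 3646 in Ctrl MCM2-2A and 3711 in dPOLE4 MCM2-2A.

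In WT cells at 96 h, all 33 2-cell genes tested had values above 0, with a median of 0.64, but none was DE by edgeR or DESeq2, and 20 had an unadjusted p below 0.05 by edgeR. Of all features, 12.3% had such a p. By the pairing rule, replicate numbers paired these libraries too. With the block 10 of 33 were DE and higher, where it called 142 of 17580 features in either direction. The lowest unadjusted p values belonged to Gm13119 (1.35), Gm4340 (0.72) and Usp17le (0.73). The difference between backgrounds had a median of 0.60 over 38 genes, with 34 above 0, none DE by edgeR or DESeq2 and 13 at an unadjusted p below 0.05 by edgeR. Of all features, 3.7% had such a p for this difference. At T60 in MCM2-2A cells, 6 of 38 were DE and higher after depletion (median 0.60, 37 above 0), where 1.07% of all features were. They were Usp17la (0.79), Pramef25 (0.78), Tmem92 (0.76), Gm5662 (0.75), Gm2016 (0.64) and Zscan4c (0.61). DESeq2 called 17 of the list there, and 544 of all 18473 features in either direction.

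**Figure D5:**
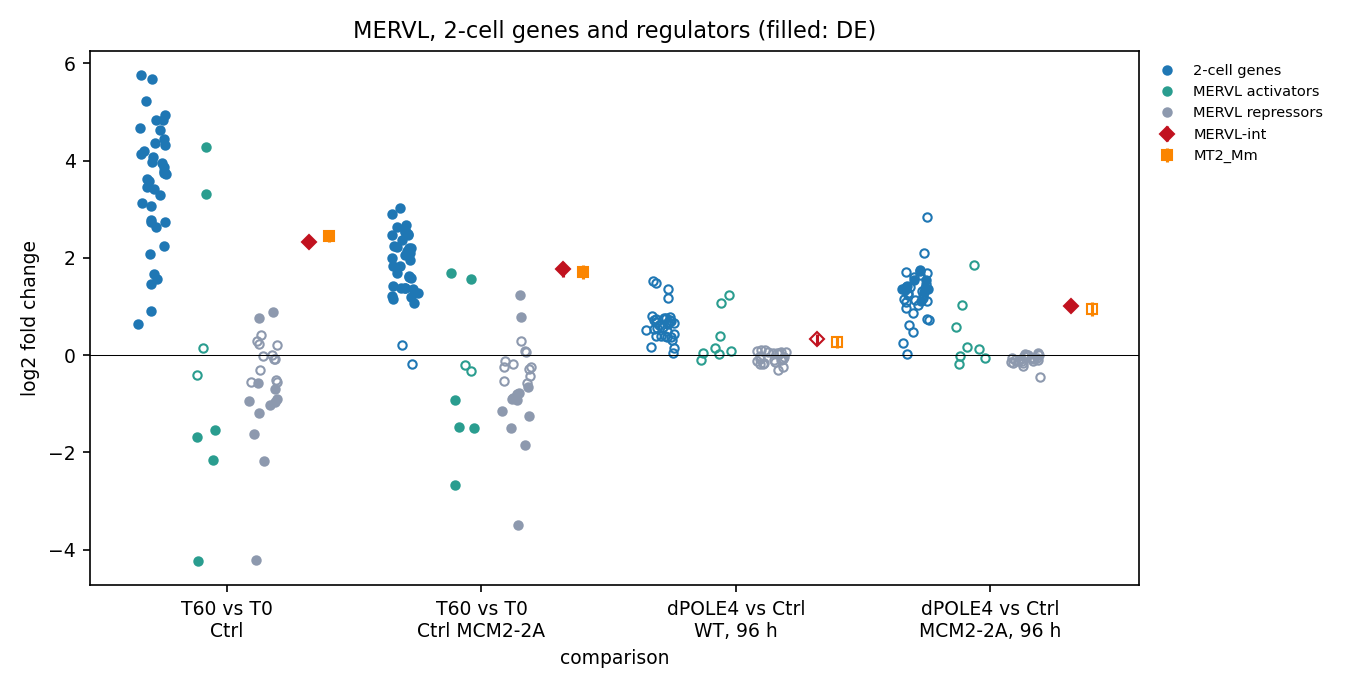
Log2 fold changes of the 2-cell genes, MERVL activators and MERVL repressors in selected comparisons, 1 point per gene, filled where the gene was DE. The 2-cell genes lie above 0 in T60 against T0 in Ctrl (38 of 38 DE and higher, beside 26.9% of all features). They also lie above 0 in dPOLE4 against Ctrl in MCM2-2A cells at 96 h (10 of 38, beside 0.195%). The repressors lie close to 0 at 96 h.

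Among factors known to activate MERVL, 8 of the 13 found in the tables passed the filter, and in Ctrl 2 were DE and higher and 4 DE and lower at T60, where 26.9% of all features were DE and higher and 23.7% DE and lower. The share of activators that was higher was thus near that of all features. Duxf3, the Dux gene of the annotation (ENSMUSG00000075046, chr10:58229979-58232675, minus strand), went from 0.181 ± 0.171 to 3.71 ± 0.937 CPM (4.28, adjusted p = 5.12e-07), and Gata2, a GATA factor that binds the LTR, rose by 3.32 on the log2 scale. Nr5a2, an orphan nuclear receptor of early embryo and stem cells, went from 84.6 ± 2.37 to 4.63 ± 0.582 CPM (-4.24). Obox6, a homeobox gene, had -2.17, and Dppa2 and Dppa4, partners that act upstream of Dux, had -1.68 and -1.55, all DE. The stem cell factors of the list thus fell while Duxf3 and Gata2 rose. Duxf3 belongs to a tandem array of near-identical copies and its count is uncertain. Its T0 level of 0.181 CPM was too low for the filter. Duxf3 was therefore tested only through its T60 libraries and could only come out higher, and the size of its fold change is uncertain.

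The RA response of Duxf3 was lower in Ctrl MCM2-2A than in Ctrl (difference -2.76 on the log2 scale, adjusted p = 0.00442), that of Gata2 lower (-1.67) and that of Nr5a2 less negative (1.54). For Duxf3 the Ctrl level at T0 was near 0, as given above, so the size and the p of its difference are uncertain. At T60 in MCM2-2A cells, Duxf3 (1.00), Gata2 (0.79), Nr5a2 (0.75) and Dppa2 (0.63) were DE and higher after POLE4 depletion, 4 of 8 tested, where 1.07% of all features were DE and higher. At 96 h in MCM2-2A cells no activator was DE by edgeR, 3 had an unadjusted p below 0.05, DESeq2 called 1 and the blocked fit 2. Of all 17421 features, 11.5% had such a p by edgeR, DESeq2 called 126 and the blocked fit 307. Duxf3 had the lowest p, with 0.784 ± 0.239 CPM in Ctrl MCM2-2A and 2.77 ± 0.262 CPM in dPOLE4 MCM2-2A (1.85, adjusted p = 0.0164), and its groups did not overlap. Gata2 had 0.58 and Obox6 1.04 there.

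Of 24 genes known to keep MERVL silent, all tested, 10 were DE and lower and 2 DE and higher at T60 in Ctrl, with a median of -0.52 (23.7% of all features were DE and lower). Those with the largest values were Zfp42 (-4.21), the stem cell zinc finger protein REX1, Rif1 (-2.18), a telomere and replication timing factor, Trim28 (-1.62), the KAP1 corepressor, L3mbtl2 (-1.20), Pcgf6 (-1.03) and Mga (-0.97), all of a noncanonical Polycomb complex, Ncl (-0.94), nucleolin, and Setdb1 (-0.91), an H3K9 methyltransferase. The counts were alike in the other lines, with 13, 11 and 13 DE and lower in dPOLE4, Ctrl MCM2-2A and dPOLE4 MCM2-2A, where 22.5%, 21.2% and 19.3% of all features were. In MCM2-2A cells at 96 h no repressor was DE by edgeR, DESeq2 or the blocked fit, and the median was -0.07. At an unadjusted p below 0.05, 2 were lower by edgeR and 11 in the blocked fit. By edgeR 11.5% of all features had such a p in either direction. That share was not taken for the blocked fit, so the 11 cannot be set against all features. Lin28a, an RNA-binding protein that acts with nucleolin on Dux, had the lowest p there (-0.45, adjusted p = 0.0136). The summed CPM of the 24 at 96 h was 9728 to 10065 in Ctrl MCM2-2A and 9164 to 9434 in dPOLE4 MCM2-2A. In the WT background it was 10094 to 10608 in Ctrl and 9626 to 9902 in dPOLE4. The sums were thus lower after depletion without overlap, as were 8.02% of all features in MCM2-2A and 9.83% in WT cells. These are shares of single features, so they are no baseline for a sum of 24 genes. The sums were also lower without overlap at T0 and T12 in both backgrounds and at T24 in MCM2-2A cells. They overlapped at T24 in WT cells and at T60 in both backgrounds. The part of the repressors in the MERVL signal was not tested. At T0 the sums were 9760 to 10493 in Ctrl MCM2-2A and 9007 to 9401 in dPOLE4 MCM2-2A. In WT cells at T0 they were 9441 to 9500 in Ctrl and 9011 to 9337 in dPOLE4.

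Markers of other cell types moved along with MERVL at T60. In Ctrl all 9 primitive endoderm markers were DE and higher (median 3.96), and their summed CPM lay between 241 and 314 at T0 and between 2080 and 2703 at T60. The T60 range was 1562 to 2032 for dPOLE4, 2828 to 3209 for Ctrl MCM2-2A and 2227 to 2497 for dPOLE4 MCM2-2A, so Ctrl MCM2-2A, with the lowest mean of MERVL-int, had the highest sum. Of 7 trophoblast markers tested in Ctrl 3 were DE and higher and 4 DE and lower, and of 7 neural markers 5 were DE and higher and 1 DE and lower, beside the 26.9% DE and higher and 23.7% DE and lower of all features. All 8 stem cell markers were DE and lower in each line at T60. At 96 h the summed primitive endoderm markers averaged between 316 and 372 CPM in the 4 groups, and 345 CPM in dPOLE4 MCM2-2A. The part of these cell types in the MERVL signal was not tested.

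Returning to the promoters shown above, 14 of the 20 symbols whose window shares words with Gm4340 were found by that name in the tables and 9 were tested at T60 in Ctrl. Of these, 5 were DE and higher and 2 DE and lower, where 26.9% of all features were DE and higher and 23.7% DE and lower. Those higher were Gm4340 (5.22), Gm33248 (4.32), Gm21293 (3.74), Gm35974 (3.02) and Sp110 (2.74), which encodes a nuclear body protein. Gm12790 (0.96) and Pemt (0.39), a phosphatidylethanolamine methyltransferase, were not DE. Arih2 (-0.86), a ubiquitin ligase, and Sgk1 (-3.08), a kinase induced by serum and glucocorticoids, were DE and lower. Pemt, Arih2, Sp110 and Sgk1 have 2, 2, 2 and 6 windows in the table, of which only 1 each shares the words, and the counts sum over all annotated starts of a gene. The printed Sp110 window lies outside the GENCODE span of that gene (chr1:85576899-85598817, minus strand). Reads at that start are thus not counted for Sp110. The median of the 9 was 2.74 beside -0.01 over all features. Pramel17 was not found by name. Its window (chr4:101843973-101844272, minus strand) covers the start of B020004J07Rik (chr4:101834969-101844023, minus strand), named above as DE and higher. The counts and the median here leave that gene out. Gm33248, Gm21293 and Gm35974 were not among the features with a mean of at least 1 CPM over the 48 libraries. A gene that passes the filter only through its T60 libraries had to be higher there. The count and the median thus describe only the genes tested and are no evidence of a direction. Gm4340 was the gene that chose the windows and Gm21293 is a near copy of it, so the members of this set are not independent.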

How the data were processed

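RNA was measured in 60 libraries of mESCs, 3 per group. Per the labels and methods, the authors made rRNA-depleted, strand-specific libraries, trimmed reads with cutadapt 4.2, aligned them with STAR to mm10 keeping reads that map to several places, and counted genes (GENCODE M25) and GRCm38 repeat subfamilies with TEcount. The deposited values are these raw counts. TEcount shares such reads among subfamilies, which can move counts between near-identical repeats or genes, and the strand setting used in counting is not given in the sources used here. The methods use DESeq2 for differential expression, which served here as an alternative.

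Counts were tested with the quasi-likelihood test of edgeR 4.0.16 in R 4.3.3 (limma 3.58.1) for each comparison over its own libraries, 6 for a pair of groups and 12 for a difference of differences, after filterByExpr (minimum count 10, minimum total 15) and TMM scaling over all 55487 genes and 1146 repeat subfamilies. P-values were adjusted over all features tested. DE meant an adjusted p below 0.01 and a log2 fold change beyond 0.58. Standard errors are the fold change divided by the square root of F, and log2 CPM used a prior count of 2. Alternatives were DESeq2 1.42.0, other scalings and filters, a replicate block, a fit over all groups, and leaving out each library. Figures were drawn from these values.

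Genes were matched by Ensembl ID to symbols (55141 of 55487). Members and lists (2-cell genes, MERVL activators and repressors, markers of embryonic stem cells, primitive endoderm, trophoblast and neural cells) were chosen with earlier results of these data known. Named were both members and every MT2 or MERVL subfamily, up to 8 DE genes of a list by size (or 3 by lowest p where none was DE), and the 10 features most like MERVL-int. Genes of the promoter comparison and the ranked repeats were named after their values were seen. Replicate numbers paired the libraries in 5 of 27 comparisons (every same-numbered pair of deviations with r over 0.1): dPOLE4 against Ctrl at T0 and 96 h in both backgrounds, and Ctrl MCM2-2A against Ctrl at 96 h. The pairing comes from the data and the labels' numbers only. In no group did a pair of libraries agree within sampling noise. On simulated counts with 200 changed genes, the 96 h comparison in MCM2-2A cells recovered 68.5% of 2-fold and 97% of 4-fold changes.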

Additional observations from a re-analysis of the deposited data

Results flagged for a closer look

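The RA response differed between Ctrl MCM2-2A and Ctrl for both members, by a test of the difference itself at an adjusted p below 0.05 but not below 0.01. The rise from T0 to T60 was smaller in Ctrl MCM2-2A by a log2 difference of -0.59 for MERVL-int (edgeR, adjusted p = 0.0415) and of -0.76 for MT2_Mm (edgeR, adjusted p = 0.0121). At T60, 2 of the 3 Ctrl MCM2-2A libraries lay below every Ctrl library for MERVL-int, at 3206 and 3228 CPM, and library 1, at 4545 CPM, lay within the Ctrl range of 4472 to 5384 CPM. For MT2_Mm the Ctrl MCM2-2A libraries were measured at 690.4, 702 and 933 CPM and the Ctrl libraries at 931 to 1171 CPM. Clone and MCM2-2A mutation cannot be told apart here.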

How the results depend on the processing

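The rise at T60 kept its direction and its call for both members in all 4 lines under DESeq2, other scalings (DESeq2 size factors, TMM from genes only), no filter, 10 counts in every library, a replicate block, a fit over all groups and every left-out library. Another scaling changed no call of a member in the 70 results. For MT2_Mm at 96 h in MCM2-2A cells the threshold was passed with DESeq2 (0.94), no filter (0.95), the replicate block (0.94) and all groups (0.94). Without a filter the 96 h difference between backgrounds passed it too (0.69 and 0.69), as did the lower RA response of MT2_Mm in Ctrl MCM2-2A (-0.73). At T24 in dPOLE4 MCM2-2A the calls were lost with DESeq2 (0.67 and 0.87). MT2B2 at T60 in dPOLE4 MCM2-2A changed sign with 10 counts in every library (0.0257). The share of all counts gave 2.45 against 2.94 for the share of repeat counts, and Spearman's rho kept 4 of 10 features. The causes were not tested.

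With the replicate number as a block, the lower RA response of Ctrl MCM2-2A passed the threshold for MERVL-int (-0.61) and MT2_Mm (-0.78). Numbers did not pair these libraries. The block changed no other call of a member than these and MT2_Mm at 96 h.

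Counts of DE features moved by more than 1.5 times for POLE4 depletion and for differences between effects. For dPOLE4 in WT cells, the 0 at T0, T12, T24 and 96 h became 27, 15, 35 and 119 without a filter and 6, 3, 14 and 142 with the block, DESeq2 called 1, 15 and 24 at T12, T24 and 96 h, and the 33 at T60 became 100 without a filter and 13 over all groups. For dPOLE4 in MCM2-2A cells, no filter took the 13, 73, 188, 416 and 53 at T0, T12, T24, T60 and 96 h to 132, 245, 396, 808 and 239, the block took T0, T12, T24 and 96 h to 143, 13, 288 and 307, DESeq2 took T0, T12 and 96 h to 73, 122 and 126, and all groups took T0 to 51. For the difference between backgrounds, the 1, 3, 7, 19 and 0 at these points became 47, 56, 55, 193 and 30 without a filter and 10, 19, 29, 83 and 1 with DESeq2, the block gave 13, 28, 45 and 1 at T0, T24, T60 and 96 h, and DESeq2 size factors and TMM from genes only gave 2 each at T0. For the RA response of dPOLE4 against Ctrl, the 2 became 10 with DESeq2, 87 without a filter and 1 with 10 counts in every library. Without a filter the median over all features from T0 to T60 in Ctrl was -0.125.

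Leaving out 1 library gave these ranges of log2 fold change (MERVL-int first, then MT2_Mm, where both are given). For dPOLE4 in WT cells they were -0.22 to 0.0043 at T0 (MERVL-int), -0.13 to 0.16 and -0.13 to 0.29 at T12, -0.27 to 0.16 and -0.39 to 0.20 at T24, and -0.12 to 0.0209 at T60 (MERVL-int). In MCM2-2A cells they were -0.19 to 0.10 and -0.14 to 0.27 at T12, 0.33 to 0.60 and 0.35 to 0.60 at T60, and 0.92 to 1.12 and 0.80 to 1.10 at 96 h. The difference between backgrounds ran from -0.24 to 0.11 and -0.40 to 0.13 at T0 and from -0.22 to 0.0875 and -0.26 to 0.23 at T12. Ctrl MCM2-2A against Ctrl gave -0.0845 to 0.24 at T24 and -0.58 to -0.31 at T60 for MERVL-int. For MT2_Mm from T0 to T24 they were 0.21 to 0.60 in Ctrl and 0.17 to 0.74 in dPOLE4, and from T0 to T12 in dPOLE4 MCM2-2A -0.30 to 0.29. From T0 to T24 in dPOLE4 MCM2-2A they were 0.49 to 0.85 and 0.66 to 1.21. At T60, MT2B1 in Ctrl MCM2-2A gave -0.0415 to 0.24 and MT2B2 in dPOLE4 MCM2-2A -0.14 to 0.0613. The RA response against Ctrl gave -0.060 to 0.17 and -0.11 to 0.15 for dPOLE4, -0.73 to -0.42 and -0.92 to -0.58 for Ctrl MCM2-2A, and -0.15 to 0.19 and -0.26 to 0.25 for dPOLE4 MCM2-2A. The library behind each changed call is named with its result. Counts of a subfamily do not show which copies were transcribed, and values near 0 at this depth and with 3 libraries are not shown to be unchanged.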
